A study of Arabidopsis thaliana with 40 samples.

Results

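The 10 genes described here encode enzymes of jasmonate synthesis in the thale cress Arabidopsis thaliana. They are the lipoxygenases LOX2 (AT3G45140), LOX3 (AT1G17420) and LOX4 (AT1G72520), the allene oxide synthase AOS (AT5G42650), the allene oxide cyclases AOC1 (AT3G25760), AOC2 (AT3G25770), AOC3 (AT3G25780) and AOC4 (AT1G13280), the reductase OPR3 (AT2G06050) and the methyltransferase JMT (AT1G19640). They were picked by locus code, and all 10 were found among the 27655 loci measured. The 40 mRNA libraries come from roots and shoots, kept apart, of seedlings of 5 genotypes, with 4 libraries per genotype and tissue. The wild type (wt) was Col-0. The line bz1728 is the double mutant bzip1728, made from the insertion lines SALK_004048 and SALK_132285, in BZIP17 and BZIP28, whose products sit in membranes and switch on genes when unfolded proteins build up. A suppressor mutant, nobiro6, is written in the labels as bzip1728 with an added mutation "a", and so by its label carries the double mutation of bz1728. The line nbr6-t1 (GABI_172C03) has an insertion in TAF12B, and taf12-t1 (WiscDsLoxHs044_12E) has one in its paralog TAF12, both of which encode subunits of the general transcription factor TFIID. Each mutant is represented by 1 line, and the labels do not say how many seedlings made up a library. All seedlings grew on agar plates at 22 °C with 16 h of light, and their age is 12 d in one label and 13 days in another. No group received a hormone or a wound treatment.

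Jasmonates are lipid hormones that plants make from linolenic acid of chloroplast membranes. In the chloroplast a lipoxygenase adds oxygen, AOS turns the product into an allene oxide and an AOC closes the ring, and in the peroxisome OPR3 reduces the ring before the side chain is shortened by beta-oxidation. The conjugate with isoleucine binds the receptor COI1 together with JAZ repressors, whose breakdown frees MYC2 and related transcription factors, and JMT makes the volatile methyl ester. In leaves the pathway is known for its fast response to wounding, and many of its own synthesis genes are known to respond to jasmonate.

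The promoters of 3 members are shown because their transcripts give the widest range of behaviour below: AOS is the single gene of its step, and LOX2 and LOX3 had the largest differences between root and shoot and between bz1728 and wt in root. The build used by the authors is not given in the sources used here. All 27444 transcripts that the deposited tables share with the TAIR10.1 annotation have the same length there, and coordinates are given on TAIR10.1. Each run is the 300 bases before the annotated start of the transcript on the coding strand, 5′ to 3′, with CACGTG and CACATG, the latter on either strand, in capitals. The window of LOX2 is chr3:16524945-16525244 on the plus strand, that of LOX3 is chr1:5977023-5977322 on the plus strand, and that of AOS is chr5:17099596-17099895 on the minus strand.
LOX2: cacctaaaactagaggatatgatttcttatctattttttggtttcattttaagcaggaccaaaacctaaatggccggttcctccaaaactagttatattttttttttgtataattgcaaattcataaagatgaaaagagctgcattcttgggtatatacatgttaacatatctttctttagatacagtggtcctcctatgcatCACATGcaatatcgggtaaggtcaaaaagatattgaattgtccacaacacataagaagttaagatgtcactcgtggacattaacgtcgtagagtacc
LOX3: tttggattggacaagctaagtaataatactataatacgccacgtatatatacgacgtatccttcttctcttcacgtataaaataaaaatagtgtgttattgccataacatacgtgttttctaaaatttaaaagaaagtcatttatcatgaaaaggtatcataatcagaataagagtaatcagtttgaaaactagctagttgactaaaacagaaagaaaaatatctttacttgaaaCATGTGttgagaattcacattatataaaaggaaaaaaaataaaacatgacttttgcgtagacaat
AOS: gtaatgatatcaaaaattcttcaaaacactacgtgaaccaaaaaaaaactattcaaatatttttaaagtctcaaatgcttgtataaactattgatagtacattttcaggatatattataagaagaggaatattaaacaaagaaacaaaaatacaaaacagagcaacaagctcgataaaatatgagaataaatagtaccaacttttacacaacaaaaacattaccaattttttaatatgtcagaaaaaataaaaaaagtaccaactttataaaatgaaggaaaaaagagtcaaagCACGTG
CACGTG, the G-box core that MYC-type factors are known to bind, was found in 1 of the 10 member windows, that of AOS, and in 7.24% of the 27443 promoter windows of the same length. CACATG, a variant of the same core, was found in the windows of LOX2, LOX3 and AOC4, 3 of 10, and in 13% of all windows. GCCGCC was in 0 of 10 and 2.31% of all, TGACG was in the LOX4 window and in 21.6% of all, and the endoplasmic reticulum stress element ERSE-I (CCAAT and CACG with 10 bases between them), which bZIP factors of this class are known to bind, was in 0 of 10 and 0.743% of all. Both strands were searched. ERSE-I ends in the letters that begin CACGTG and can overlap with it, but no 2 matches in a member window overlapped, and a match is a description of letters and not of binding.

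AOC1, AOC2 and AOC3 stand next to each other on chromosome 3, and AOC4 lies on chromosome 1. The last 90 coding bases of the 4 genes are shown because AOC1, AOC2 and AOC3 share short runs of sequence. Capitals mark the bases that differ from AOC2.
AOC1: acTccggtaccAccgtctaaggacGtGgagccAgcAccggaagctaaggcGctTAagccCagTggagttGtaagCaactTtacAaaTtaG
AOC2: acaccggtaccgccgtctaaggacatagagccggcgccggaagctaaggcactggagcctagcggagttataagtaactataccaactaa
AOC3: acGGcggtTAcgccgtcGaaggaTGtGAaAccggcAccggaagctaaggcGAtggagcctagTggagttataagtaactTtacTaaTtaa
AOC4: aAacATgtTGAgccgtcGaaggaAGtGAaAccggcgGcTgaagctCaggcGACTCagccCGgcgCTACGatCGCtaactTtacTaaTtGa
In this stretch AOC1 and AOC3 each differ from AOC2 at 17 bases and AOC4 at 34. Over the aligned coding sequence AOC1 and AOC2 are 90.3% identical, AOC3 and AOC4 80%, and LOX3 and LOX4 81%, whereas LOX2 is 60.6% identical to LOX3. Of the 31-mers of AOC1, AOC2 and AOC3, 6.2%, 3.31% and 3.93% also occur in another transcript, in each case one of these 3 genes, and no other member shares any. The deposited counts of all 10 members were whole numbers in 40 of 40 libraries, as they are where no read is shared out between transcripts. Reads that fall in the shared part of the AOC genes remain uncertain.

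Library totals ran from 2663664 to 8201232 counts in root and from 3423487 to 12896653 in shoot. Levels are given in TPM, the transcript abundance scaled for transcript length and library total, as mean ± SD with n = 4 libraries, and differences as log2 fold changes ± an approximate standard error from edgeR on the counts, with p values adjusted over all genes tested and called under 0.05. Nothing in the labels says that the replicates came from separate cultures, so that p values measure the spread between these libraries, which may be technical. The summed level of 10 photosynthesis genes was 41000 to 51200 TPM in shoot libraries and 148 to 662 in root libraries, and that of 10 root markers was 4350 to 7540 TPM in root and 91.8 to 576 in shoot. BZIP28 (AT3G10800) was listed at 0 in all bz1728 libraries, but stood at 8.86 ± 2.22 TPM in the root and 13.4 ± 1.29 in the shoot of the libraries labelled nobiro6, against 43.8 ± 2.54 and 15.8 ± 2.48 in wt, so that nobiro6 and bz1728 also differ in this gene. BZIP17 (AT2G40950) was 3.02 ± 0.647 TPM in bz1728 root and 2.73 ± 0.797 in nobiro6 root, against 28 ± 1.36 in wt. TAF12B (AT1G17440) was 14.8 ± 1.37 TPM in nobiro6 root and 8.68 ± 1.69 in nobiro6 shoot. By edgeR it was lower there than in wt, at -1.03 ± 0.09 (adjusted p 5.1e-11) in root and -1.32 ± 0.11 (adjusted p 1.1e-08) in shoot. In the shoot libraries labelled nbr6-t1, TAF12B was 6.06 ± 1.17 TPM against 19.8 ± 1.83 in wt, but 32.7 ± 2.41 against 28.8 ± 2.99 in root. TAF12 (AT3G10070) in the libraries labelled taf12-t1 was 3.8 ± 0.761 TPM against 5.66 ± 0.562 in shoot and 14.2 ± 2.51 against 7.72 ± 0.399 in root, so that in root the transcript level does not check the label of either line. In the members, 5 libraries stood apart: wt shoot replicate 1 was low, nbr6-t1 shoot replicate 3 was high, and bz1728 root replicate 2 was the highest of its group in 8 of 10 members. The members summed to 428 TPM in bz1728 shoot replicate 1, against 243 to 321 in the other libraries of its group, and to 305 TPM in nobiro6 shoot replicate 1, against 160 to 229.

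In the wild type, root and shoot used different members of the same enzyme families. All 10 members differed between the tissues, where 79% of 20015 genes were called: 2 were higher in root and 8 lower, with a median log2 difference of -5.01 against -0.01 over all genes. The order of the levels in wt root was AOC4, AOC3, OPR3 and AOS, followed by 6 members under 1 TPM. AOC4 (52.4 ± 4.69 TPM) and AOC3 (45 ± 5.23) overlapped, and OPR3 (25.5 ± 4.73) and AOS (18.3 ± 1.08) did not overlap with them or with each other. In wt shoot LOX2 led with 193 ± 106 TPM, followed by AOS (68.8 ± 11.7), AOC2 (50.1 ± 29), OPR3 (19.4 ± 2.87) and AOC1 (14.6 ± 6.22). AOC4, JMT, LOX3 and LOX4 followed between 8.95 and 5.77 TPM, and AOC3 was last with 1.98 ± 0.979 TPM. Each member overlapped with its neighbours in this order, apart from AOC3, whose libraries were all below those of LOX4.

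LOX2, the main lipoxygenase of leaf jasmonate synthesis, was at 46, 185, 279 and 260 TPM in the 4 wt shoot libraries and at 0, 0.291, 0 and 0 in the 4 wt root libraries. The groups were far apart although the first shoot library was well under the others, and LOX2 was lower in root by a log2 difference of -11.85 ± 0.92 (edgeR adjusted p 3e-13). LOX2 had 5 counts over the 4 wt root libraries, all in 1 of them, and without that library the fitted difference was -14.83, a value that depends on the prior count of the fit and is no bound. LOX3, a lipoxygenase known from wounded leaves and from flower development, had 3 counts over the wt root libraries and 740 over the wt shoot libraries, a ratio of 0.00615 (95% counting interval 0.00126 to 0.018). Such intervals cover counting error only. LOX4, its closest paralog, was at 0.636 ± 0.213 TPM in root and 5.77 ± 1.52 in shoot (log2 difference -4.32 ± 0.43, adjusted p 5.5e-11).

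The cyclases divided the tissues between them. AOC3 was at 51, 46.5, 38.4 and 44.2 TPM in wt root and at 0.52, 2.61, 2.4 and 2.4 in wt shoot, a log2 difference of 3.4 ± 0.19 (adjusted p 3.3e-20). AOC4 was at 51.2, 59, 47.9 and 51.6 TPM in wt root and at 7.25, 10.5, 8.57 and 9.5 in wt shoot, a difference of 1.5 ± 0.12 (adjusted p 2.9e-15). For both genes every root library was above every shoot library. AOC2 was at 0.613, 0.607, 0.514 and 0.809 TPM in wt root and at 14.7, 47.6, 85.5 and 52.4 in wt shoot (-7.28 ± 0.8, adjusted p 8.6e-10), and AOC1 was lower in root by a log2 difference of -5.69 ± 0.56 (adjusted p 4.7e-11). As a share of the summed AOC level, AOC4 made up 53.2 ± 2.42% and AOC3 45.6 ± 2.79% in wt root, whereas in wt shoot AOC2 made up 63 ± 9.74% and AOC1 19.9 ± 3.59%. The summed level itself was 98.6 ± 8.55 TPM in root and 75.6 ± 35.7 in shoot.

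AOS was lower in root by a log2 difference of -2.97 ± 0.17 (adjusted p 3.7e-17), and JMT by -6.16 ± 0.45 (adjusted p 1.6e-15), with 5 counts in all 4 wt root libraries together. OPR3 was lower in root by -0.64 ± 0.14 on the count scale (adjusted p 4.2e-05). On the log2(TPM + 1) scale OPR3 turned to 0.37 (limma adjusted p 0.024), where the median over all genes was 0.93, against -0.01 on the count scale, so that its direction depends on the scaling. For the other 9 members the direction was the same on both scales. LOX6 (AT1G67560), a further chloroplast lipoxygenase known from roots, made up 96.3 ± 0.603% of the summed level of LOX2, LOX3, LOX4 and LOX6 in wt root, and LOX2 made up 83.7 ± 11.6% in wt shoot.

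**Figure D1:**
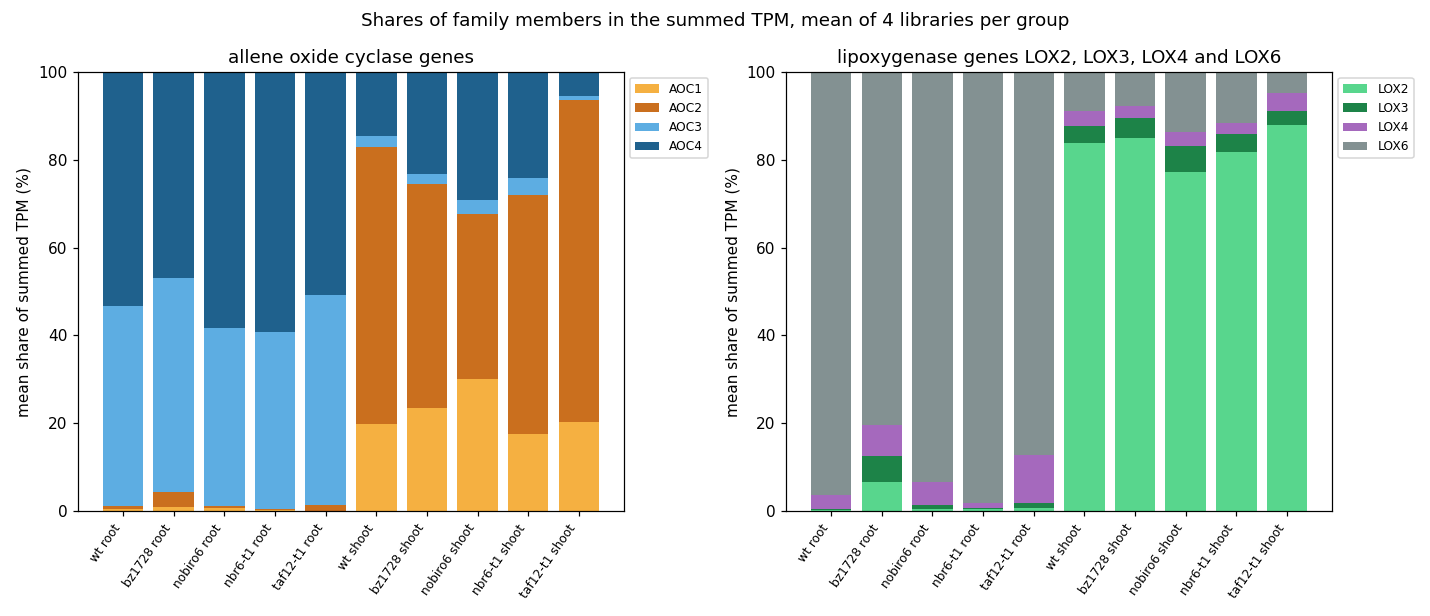
Shares of the summed TPM of the allene oxide cyclases and of the chloroplast lipoxygenases, in percent, as the mean over 4 libraries for each genotype in root and shoot. AOC3 and AOC4 fill the wt root bar and AOC2 most of the wt shoot bar, at 63%, and LOX6 takes 96.3% of the lipoxygenase sum in wt root.

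In root, bz1728 had more transcript of every tested member than wt. Of 8 members tested 8 rose, where 18.2% of 18745 genes rose and 38.9% were called in either direction. The members' median log2 fold change was 1.88, against 0.02 over all genes. No library of bz1728 overlapped with a wt library in any of the 8, and 17.5% of all genes had every bz1728 library above every wt library. AOC1 and JMT were under the filter on low counts and were not tested in root. LOX2, LOX3 and AOC2 passed that filter only through their bz1728 libraries, and so were tested because they were high there. The count of 8 and the median include these members and are partly set by the filter. In bulk RNA, a change in the number of cells of a type and a change in RNA per cell cannot be told apart.

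LOX2 was at 2.77, 1.38, 3.47 and 4.15 TPM in bz1728 root, against at most 0.291 in wt, and rose by 4.71 ± 0.64 (adjusted p 8e-07). This is still far below the level of any shoot library, the lowest of which held 38.7 TPM. LOX3 was at 1.14, 6.36, 1.19 and 2.86 TPM in bz1728 root and at 0, 0, 0.0959 and 0.121 in wt, 151 counts against 3, a ratio of 56 (95% counting interval 18.8 to 275), and its fitted rise was 5.46 ± 0.8 (adjusted p 8.8e-06). Replicate 2 of bz1728 held 100 of the 151 counts. Without wt root replicate 2, wt had 0 counts of LOX2 and the fitted rise was 7.81, which is no bound, and without wt root replicate 4 the rise of LOX3 was 6.24. Without bz1728 root replicate 2 the rise of LOX3 was 4.58 (adjusted p 1.3e-06), and all 8 members were still called. LOX4 was at 2.38, 4.32, 3.32 and 2.9 TPM against 0.809, 0.344, 0.778 and 0.612 in wt (2.42 ± 0.34, adjusted p 5e-07).

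AOS was at 43.5, 57.7, 36.9 and 46.3 TPM in bz1728 root and at 17, 18.4, 19.6 and 18 in wt. The wt libraries lay close together and the lowest bz1728 library was well above them, and AOS rose by 1.34 ± 0.15 (adjusted p 2.1e-07). AOC2, the shoot cyclase, was at 5.57, 13.3, 3.99 and 6.94 TPM in bz1728 root and rose by 3.49 ± 0.47 (adjusted p 2.6e-07). AOC3 was at 86.6, 119, 77.3 and 108 TPM and rose by 1.12 ± 0.11 (adjusted p 1.2e-08). AOC4 was at 92.3, 108.5, 86.5 and 87 TPM and rose by 0.83 ± 0.09 (adjusted p 1.9e-09). OPR3 was at 62.1, 76.5, 57.6 and 57.6 TPM, against 20.4, 31.8, 25.1 and 24.8 in wt, and rose by 1.29 ± 0.12 (adjusted p 4.9e-10).

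The 4 tested members under 1 TPM in wt root (LOX2, LOX3, LOX4 and AOC2) had log2 fold changes of 2.42 to 5.46, and the 4 with 18.3 TPM or more (AOS, AOC3, AOC4 and OPR3) had 0.83 to 1.34. The filter partly sets this contrast, since LOX2, LOX3 and AOC2 passed it only through their bz1728 libraries. AOC1 and JMT, also under 1 TPM in wt root, were not tested and are not in it. In TPM the larger share of the gain lay in the abundant ones: the summed AOC level went from 98.6 ± 8.55 TPM in wt to 200 ± 31.8 in bz1728, of which AOC2 made up 3.55 ± 1.33%. The summed lipoxygenase level went from 20.7 ± 0.67 to 45.8 ± 8.43 TPM, and the LOX6 share from 96.3 ± 0.603% to 80.3 ± 3.1%. AOC1 was at 1.2, 3.03, 2.67 and 0 TPM in bz1728 root and at 0, 1.01, 0.573 and 0.361 in wt, which overlap. JMT had 0 counts in all 4 bz1728 libraries and 5 in wt. With a floor of 3 counts in place of 0 it was 1.5-fold lower. That value leaves out the counting error of the 5 wt counts and is no bound.

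**Figure D2:**
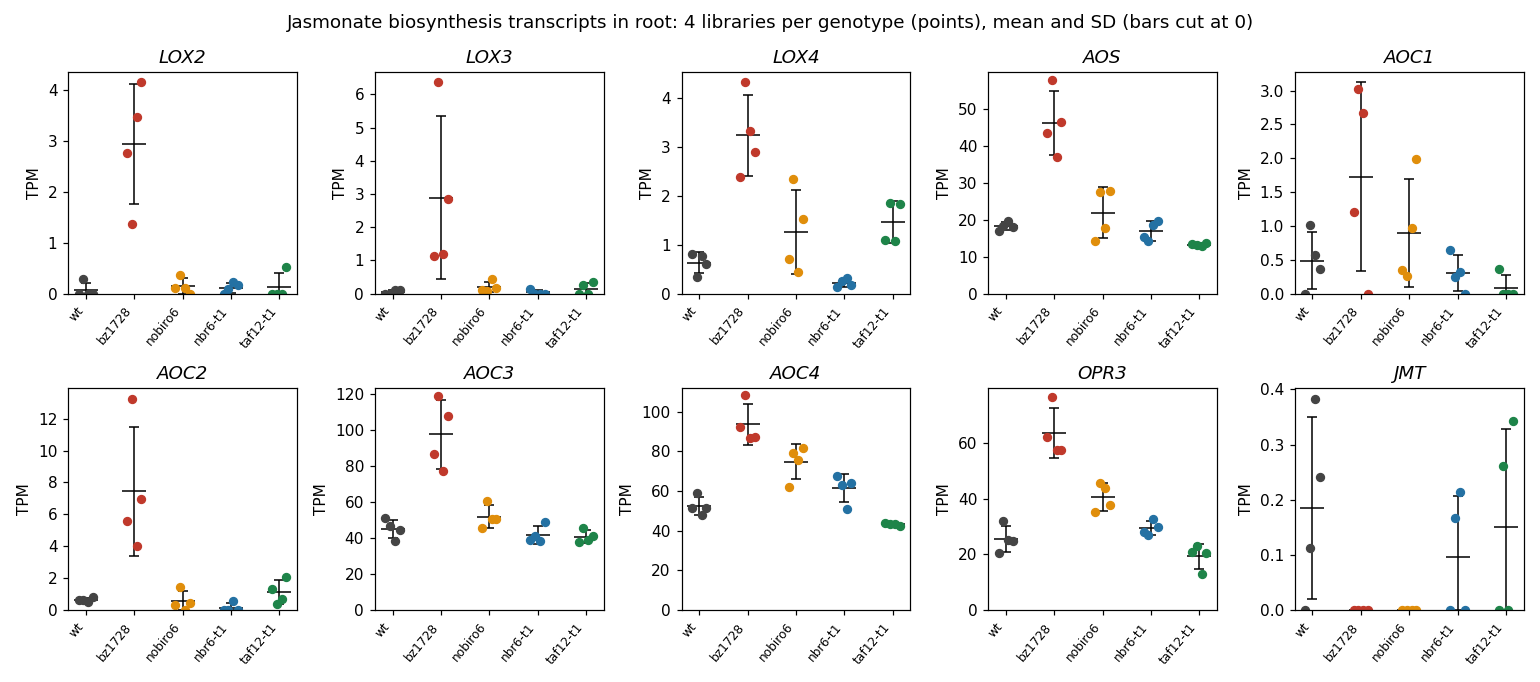
Level of each member in root in TPM on a linear axis, with 1 point per library, the mean as a line and the SD as a bar, for the 5 genotypes. The 4 bz1728 libraries lie above all 4 wt libraries for the 8 members other than AOC1 and JMT, and for the same 8 above all 4 nobiro6 libraries.

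In nobiro6 root, the tested members were lower than in bz1728. Of 8 members 8 fell, where 18.9% of all genes fell and 31.7% were called in either direction, with a median of -1.27 against 0.03 over all genes. This comparison shares the bz1728 libraries with the one above, so that a high bz1728 library raises both. LOX2, LOX3 and AOC2 passed the filter on low counts only through those libraries, so that the count of 8 and the median are partly set by it. LOX2 was at 0.12, 0.367, 0.112 and 0 TPM in nobiro6 root and fell by 3.97 ± 0.64 (adjusted p 1.8e-05), and LOX3 was at 0.116, 0.0889, 0.435 and 0.167 and fell by 3.87 ± 0.72 (adjusted p 0.00022). Without bz1728 root replicate 2, the fall of LOX3 was -2.99 on the log2 scale, and without nobiro6 root replicate 3 it was -4.6. AOC2 was at 0.312, 1.44, 0 and 0.448 TPM and fell by 3.64 ± 0.53 (adjusted p 1.6e-06). Without nobiro6 root replicate 2, which was the highest of its group in LOX2, LOX4 and AOC2, these 3 members stood at -4.88, -2.02 and -4.95.

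LOX4 was at 0.707, 2.35, 0.442 and 1.53 TPM in nobiro6 root, and its highest library came close to the lowest of bz1728, at 2.38 (-1.39 ± 0.33, adjusted p 0.001). AOS was at 14.2, 27.4, 17.8 and 27.9 TPM and fell by 1.15 ± 0.16 (adjusted p 4.9e-06). AOC3 fell by 0.96 ± 0.12 (adjusted p 3.6e-07), AOC4 by 0.39 ± 0.09 (adjusted p 0.00087) and OPR3 by 0.7 ± 0.12 (adjusted p 3.1e-05). No nobiro6 library overlapped with a bz1728 library in any of the 8 members, and 14.3% of all genes had every nobiro6 library below every bz1728 library.

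Against wt, AOC4 and OPR3 were higher in nobiro6 root, and LOX4 was called higher in the main fit. Of 8 members 3 were higher and 0 lower, where 42.8% of genes were called, a share near that of the members. AOC4 was at 62.1, 79.3, 75.7 and 81.8 TPM in nobiro6 (0.44 ± 0.09, adjusted p 0.00025) and OPR3 at 35, 45.6, 43.7 and 37.7 TPM (0.59 ± 0.13, adjusted p 5e-04), both above every wt library. LOX4 was called at 1.03 ± 0.42 (adjusted p 0.043), but the call depended on the method and on single libraries. With all libraries kept it was not called by DESeq2 (1.02, adjusted p 0.056), limma (0.39, adjusted p 0.16) or the fit of 2 groups (1.03, adjusted p 0.078). Without nobiro6 root replicate 2 it was 0.39 (adjusted p 0.54), and without nobiro6 root replicate 4 it was 0.96 (adjusted p 0.084). Without wt root replicate 2 it was 0.77 (adjusted p 0.16), and without wt root replicate 4 it was 1.05 (adjusted p 0.075). AOS (0.19 ± 0.17, adjusted p 0.39), AOC3 (0.16 ± 0.12, adjusted p 0.31), AOC2 (-0.15 ± 0.81, adjusted p 0.9) and LOX2 (0.75 ± 1.15, adjusted p 0.63) were not called, and LOX3 had 7 counts against 3, a ratio of 3.64 (95% counting interval 0.83 to 21.8). The intervals of the last 3 are wide.

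**Figure D3:**
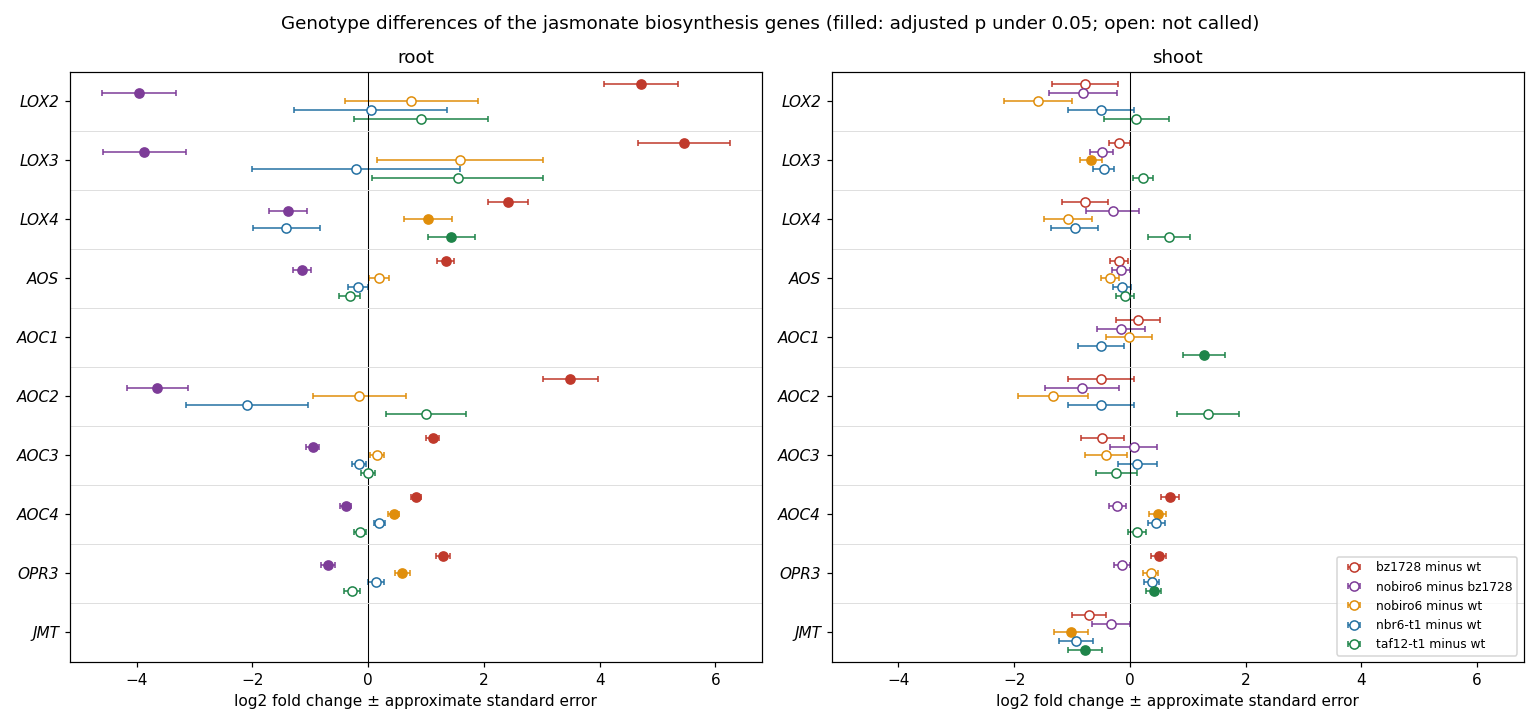
Log2 fold changes of the members, with the approximate standard error as bars, in root on the left and shoot on the right, for 5 genotype comparisons. Filled points passed an adjusted p of 0.05 and open points did not, and AOC1 and JMT were not tested in root. In root all bz1728 minus wt points lie above 0, from 0.83 to 5.46, and all nobiro6 minus bz1728 points below 0.

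Other genes linked to the pathway were read from lists of known roles. The list of other synthesis steps also holds relatives of pathway enzymes, among them LOX1, LOX5 and OPR1. Not all of these act in jasmonate synthesis, and its counts include them in every comparison. Of 17 tested genes of other synthesis steps, 8 rose, 3 fell and 6 were not called in bz1728 root, with a median of 0.14. Of all genes, 38.9% were called there and 18.2% rose. ACX1, an acyl-CoA oxidase of the beta-oxidation steps, rose by 0.62 ± 0.07 (adjusted p 6.6e-09) and FAD3, a desaturase that makes linolenic acid, by 0.53 ± 0.07 (adjusted p 1.7e-07). OPCL1, a ligase that activates the precursor before its side chain is shortened, rose by 0.63 ± 0.09 (adjusted p 4.4e-07). OPR1, a reductase related to OPR3, went the other way, from 342.8 ± 16.2 TPM in wt to 145.5 ± 8.95 in bz1728 (-1.24 ± 0.1, adjusted p 7.8e-11), and LOX6 rose by 0.87 ± 0.13 (adjusted p 5.6e-06). In nobiro6 against bz1728, 9 of the 17 fell and 0 rose, where 31.7% of all genes were called and 18.9% fell.

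Of 9 tested genes of conjugation and turnover, 7 rose and 1 fell in bz1728 root, where 38.9% of all genes were called. In nobiro6 against bz1728, where 31.7% of all genes were called, 6 fell and 1 rose. AT3G55970, annotated as the jasmonate-regulated gene JRG21, was at 0, 0, 0 and 0.139 TPM in wt root and at 9.11, 24.4, 13.3 and 18.2 in bz1728 (7.86 ± 0.7, adjusted p 1.2e-08). It was at 0, 0.411, 1 and 1.93 TPM in nobiro6, below every bz1728 library. ST2A, a sulfotransferase of hydroxylated jasmonate, rose by 2.07 ± 0.16 (adjusted p 2.3e-12), IAR3, an amidohydrolase that cleaves jasmonate conjugates, by 0.53 ± 0.07 (adjusted p 4.5e-08) and AT5G05600 by 2.06 ± 0.21 (adjusted p 6.7e-07). CYP94B3, a hydroxylase of the isoleucine conjugate, was the gene that rose in nobiro6 against bz1728 (1.07 ± 0.15, adjusted p 1.3e-06).

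Of 17 tested genes of perception and regulation, 11 rose and 4 fell in bz1728 root, where 38.9% of all genes were called. In nobiro6 against bz1728, where 31.7% of all genes were called, 10 fell and 0 rose. JAZ10, a repressor known to be induced by jasmonate, was at 29.5, 47.8, 17.1 and 33 TPM in bz1728 root and at 1.71, 0.317, 1.08 and 0.791 in wt. JAM1, which encodes a repressor of the MYC type, rose by 1.84 ± 0.2 (adjusted p 2.6e-09), JAZ5 by 2.04 ± 0.25 (adjusted p 1.9e-08) and MYC2 by 0.92 ± 0.09 (adjusted p 5.6e-10). Of the 4 tested jasmonate response genes 2 rose and 2 fell: TAT3, an aminotransferase, was at 129, 293, 64.5 and 168 TPM against at most 0.894 in wt, whereas VSP2, a vegetative storage protein induced by jasmonate in shoots, fell from 103 ± 9.61 to 17.5 ± 4.87 TPM (-2.61 ± 0.32, adjusted p 5.1e-06). VSP1 fell by 0.89 ± 0.16 (adjusted p 0.00031), and so the response genes moved in both directions. In nobiro6 VSP2 was at 18.8 ± 7.6 TPM and was not called against bz1728 (0.16 ± 0.4, adjusted p 0.8).

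Of 9 tested wound and touch genes, 8 rose and 1 fell in bz1728 root against wt, where 38.9% of all genes were called. In nobiro6 against bz1728, where 31.7% of all genes were called, 8 fell. The summed level of the list was 465 to 743 TPM in bz1728 root, 200 to 215 in wt and 228 to 268 in nobiro6, without overlap of bz1728 with either. TCH3, a calmodulin-like protein induced by touch, was at 298, 454.5, 223 and 371 TPM in bz1728 and at 63.2, 58.9, 56 and 57.6 in wt (2.52 ± 0.2, adjusted p 3.5e-08). TCH4, a cell wall enzyme, rose by 1.55 ± 0.15 (adjusted p 1.2e-10), ZAT10, a zinc finger repressor, by 1.36 ± 0.17 (adjusted p 4.7e-08) and TCH2, a calmodulin-like protein, by 0.76 ± 0.1 (adjusted p 1e-07). The labels name no wound treatment, and the part of these genes in the member results was not tested. The photosynthesis genes summed to 188 to 372 TPM in bz1728 root and 448 to 478 in wt root. The root markers summed to 4810 to 6030 TPM in bz1728 root and 7080 to 7540 in wt root. Most of that sum was PYK10, a beta-glucosidase, at 4587 ± 485.1 TPM in bz1728 and 6513 ± 188.6 in wt (-0.51 ± 0.08, adjusted p 1.7e-06), and of the 10 root markers 4 rose and 4 fell, with RHD6 (1.16 ± 0.13, adjusted p 5.6e-09) and EXP7 (1.36 ± 0.13, adjusted p 1.6e-08) among those that rose. The part of either marker list in the result was not tested.

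**Figure D4:**
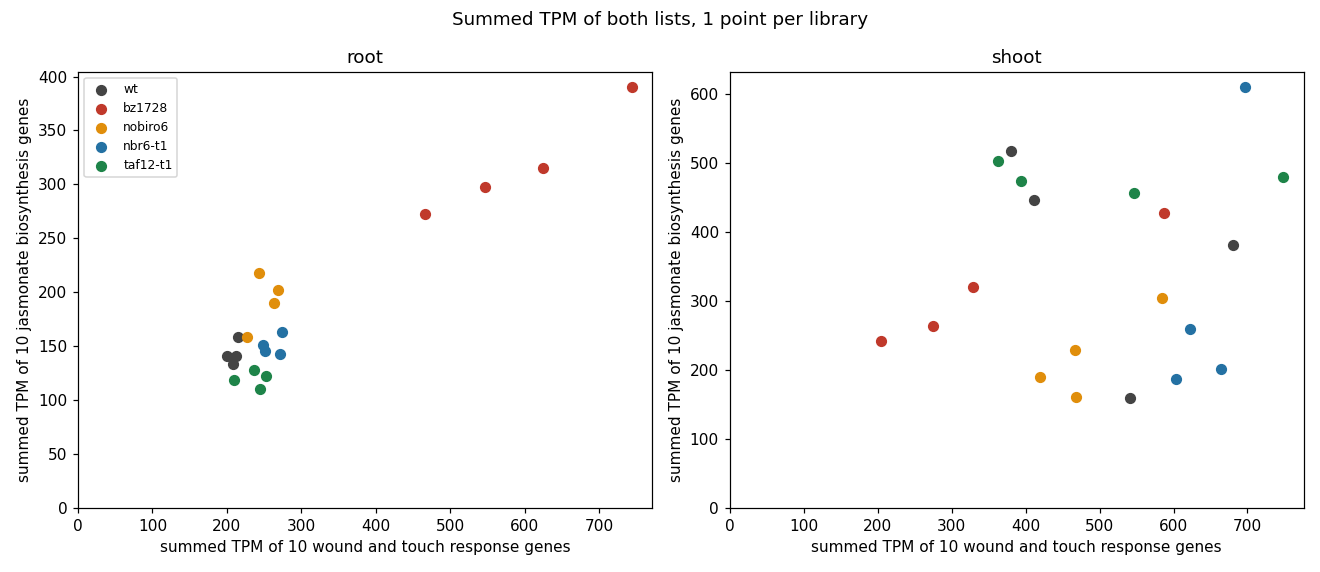
Summed TPM of the jasmonate biosynthesis members against the summed TPM of the 10 wound and touch genes, with 1 point per library, coloured by genotype, in root and in shoot. In root the 4 bz1728 libraries lie apart at 465 to 743 TPM of the wound and touch genes and 273 to 390 TPM of the members.

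In shoot, AOC4 and OPR3 rose in bz1728. Of 10 members 2 rose, 0 fell and 8 were not called, where 17.8% of 17382 genes were called, a share near that of the members. AOC4 was at 13.8, 14.6, 18.8 and 15.6 TPM in bz1728 shoot, above every wt library (0.69 ± 0.15, adjusted p 0.002), and OPR3 was at 32.5, 34.3, 26.5 and 28 TPM against 15.4, 21.5, 19.5 and 21.4 (0.5 ± 0.13, adjusted p 0.0081). LOX2 was at 182, 88.3, 137 and 93.5 TPM and overlapped with wt (-0.78 ± 0.57, adjusted p 0.39). The 8 members not called had log2 differences from -0.78 (LOX2) to 0.14 (AOC1). JMT was called lower without wt shoot replicate 2 (-0.85, adjusted p 0.047), and without wt shoot replicate 1 the same 2 members were called. Without bz1728 shoot replicate 1 both were called as well, AOC4 at 0.76 (adjusted p 0.002) and OPR3 at 0.49 (adjusted p 0.021). Of the wound and touch genes 0 rose and 2 of 9 fell in bz1728 shoot, with summed levels of 204 to 587 TPM against 380 to 680 in wt.

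Whether the bz1728 difference was unequal in root and shoot was tested directly. For 7 of 10 members it was larger in root, for 0 smaller, where 23% of 20015 genes were called. The differences of the log2 fold changes were 5.46 ± 1.75 for LOX2 (adjusted p 0.022), 5.67 ± 0.8 for LOX3 (adjusted p 2.1e-06), 3.24 ± 0.6 for LOX4 (adjusted p 0.00012) and 4.07 ± 1.28 for AOC2 (adjusted p 0.019). Without wt root replicate 2, which held all LOX2 counts of wt root, the fitted LOX2 value was 8.44, and for LOX3 it was 6.45 without wt root replicate 4 and 4.75 without bz1728 root replicate 2. LOX2 was not called without wt root replicate 4 (4.98, adjusted p 0.054), nor AOC2 without bz1728 root replicate 2 (3.54, adjusted p 0.09). AOS (1.57 ± 0.23, adjusted p 4.8e-06), AOC3 (1.66 ± 0.34, adjusted p 0.00031) and OPR3 (0.84 ± 0.19, adjusted p 0.00076) also rose more in root, and AOC4 showed 0.17 ± 0.17 (adjusted p 0.54).

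In shoot, no member was called between nobiro6 and bz1728 in the main edgeR fit. Of 10 members 0 passed, where 21% of all genes were; 1 had an unadjusted p under 0.05, and DESeq2 and limma also called 0. None was called without bz1728 shoot replicate 1 or without nobiro6 shoot replicate 1. The nearest was LOX3, at 4.18, 4.25, 5.12 and 5.12 TPM in nobiro6 against 8.39, 5.28, 6.82 and 6.13 in bz1728 (-0.49 ± 0.2, adjusted p 0.085). The edgeR fit of 2 groups called LOX3 lower (-0.48, adjusted p 0.041). The fall in nobiro6 against bz1728 was larger in root than in shoot for 2 of 10 members, LOX3 (-3.36 ± 0.77, adjusted p 0.0022) and AOS (-0.96 ± 0.24, adjusted p 0.0051), where 15.8% of all genes were called. LOX3 stood at -2.44 without bz1728 root replicate 2 and at -4.08 without nobiro6 root replicate 3. DESeq2 called 6 of 10 in that test.

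Against wt, nobiro6 shoot had 1 member higher and 2 lower of 10, where 12.1% of all genes were called. AOC4 was at 16.4, 13.2, 13.2 and 11.3 TPM (0.48 ± 0.15, adjusted p 0.04), and LOX3 was lower by 0.67 on the log2 scale (-0.67 ± 0.19, adjusted p 0.02). JMT was at 2.73, 4.24, 4.34 and 4.47 TPM, below every wt library, the lowest of which held 5.13 (-1.02 ± 0.3, adjusted p 0.026). Each of the 3 calls was lost when single libraries were left out: AOC4 was lost without wt shoot replicate 1 (0.4, adjusted p 0.12), 3 (0.47, adjusted p 0.081) or 4 (0.51, adjusted p 0.051) or nobiro6 shoot replicate 1 (0.38, adjusted p 0.16), 2 (0.49, adjusted p 0.06) or 3 (0.49, adjusted p 0.064), LOX3 was lost without wt shoot replicate 3 (-0.62, adjusted p 0.055) or nobiro6 shoot replicate 1 (-0.61, adjusted p 0.07) or 2 (-0.63, adjusted p 0.059), and JMT without wt shoot replicate 3 (-0.86, adjusted p 0.083) or 4 (-0.95, adjusted p 0.061) or nobiro6 shoot replicate 1 (-0.86, adjusted p 0.093) or 2 (-1.06, adjusted p 0.05). With all libraries kept, limma did not call LOX3 (adjusted p 0.085) or JMT (adjusted p 0.057), but called OPR3 (0.46, adjusted p 0.034). The fit of 2 groups did not call AOC4 (adjusted p 0.063). LOX2 was at 100.1, 88.3, 38.7 and 54.9 TPM (-1.59 ± 0.58, adjusted p 0.093). It passed the threshold without wt shoot replicate 1 (-1.91, adjusted p 0.032) and by DESeq2 (-1.58, adjusted p 0.042).

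**Figure D5:**
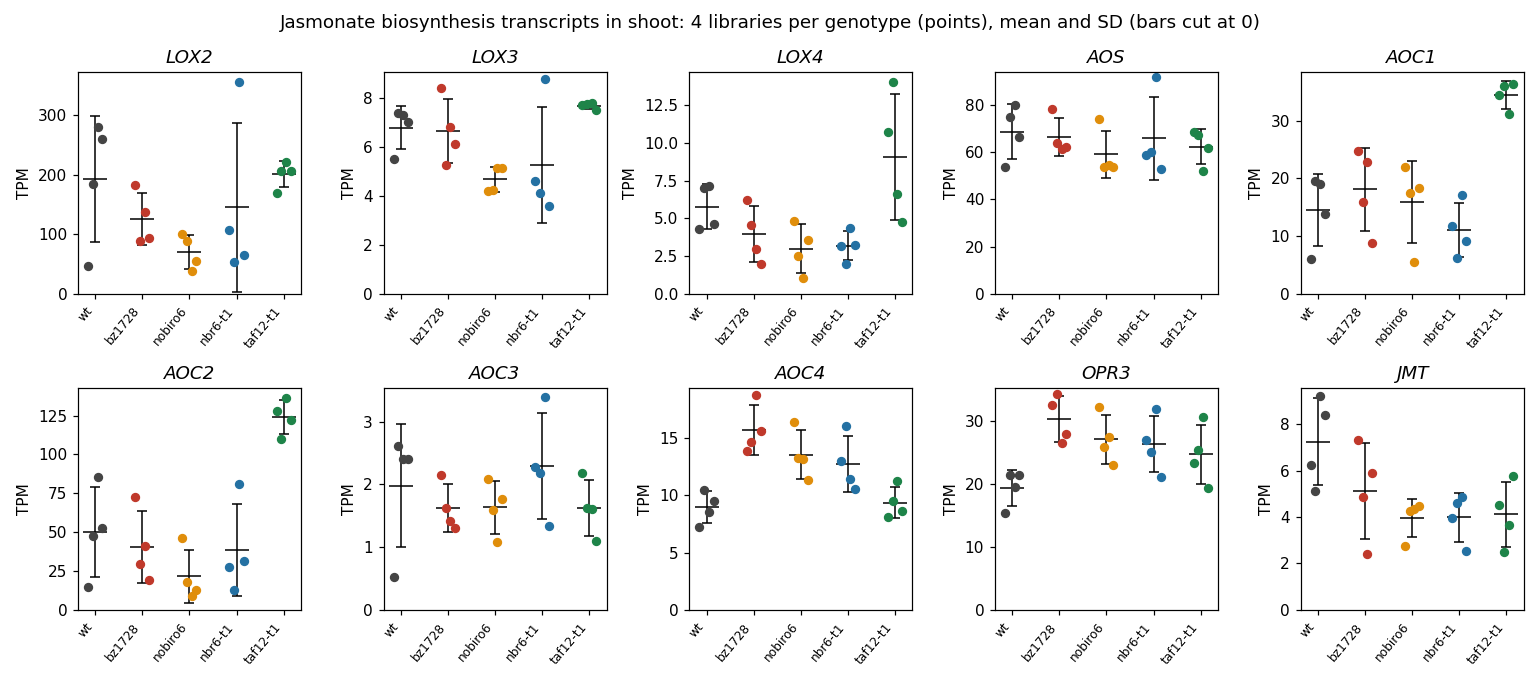
Level of each member in shoot in TPM on a linear axis, with 1 point per library, the mean as a line and the SD as a bar, for the 5 genotypes. The 4 taf12-t1 libraries lie above all wt libraries for AOC1 and AOC2, and wt replicate 1 and nbr6-t1 replicate 3 lie apart from their groups for LOX2, at 46 and 355 TPM.

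In nbr6-t1 no member passed the test in either tissue. In root 0 of 8 were called by edgeR, where 20.5% of all genes were; 2 had an unadjusted p under 0.05, and DESeq2 and limma called 0. LOX4 was at 0.145, 0.253, 0.326 and 0.17 TPM in nbr6-t1 root, below every wt library (-1.41 ± 0.58, adjusted p 0.082), and passed without wt root replicate 2 (-1.67, adjusted p 0.048). AOC2 had 2 counts against 13 in wt, a ratio of 0.201 (95% counting interval 0.022 to 0.889), and both AOC2 (-4.44, adjusted p 0.049) and AOC4 (0.27, adjusted p 0.049) passed without nbr6-t1 root replicate 3. In shoot 0 of 10 were called by edgeR, where 7.5% of all genes were; 5 had an unadjusted p under 0.05, DESeq2 called 1 and limma 0. JMT was at 3.96, 4.59, 4.86 and 2.52 TPM, again below every wt library (-0.93 ± 0.29, adjusted p 0.051), and it passed without wt shoot replicate 2 (-1.08, adjusted p 0.029). OPR3 passed without nbr6-t1 shoot replicate 4 (0.45, adjusted p 0.046). AOC4 was at 12.97, 16.02, 11.37 and 10.51 TPM, the last just above the highest wt library, at 10.49. The fit of 2 groups called LOX4 (-0.95, adjusted p 0.035) and JMT (-0.93, adjusted p 0.033) lower. LOX2 was at 107, 54, 355 and 65.1 TPM, 1 library well above the rest (-0.5 ± 0.57, adjusted p 0.68). The nbr6-t1 effect was unequal between root and shoot for 0 of 10 members by edgeR, DESeq2 and limma alike, with 0 at an unadjusted p under 0.05, where 2.4% of all genes were called.

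LOX3 lies close to the mutated gene of nbr6-t1. LOX3 spans chr1:5977323-5981521 on the plus strand and TAF12B chr1:5983984-5987934 on the minus strand, 2462 bases apart, with AT1G17430 between them, the end of which overlaps with TAF12B on the other strand, so that reads there are uncertain. In nbr6-t1 shoot LOX3 was at 4.62, 4.11, 8.77 and 3.57 TPM against 5.5, 7.38, 7.29 and 7 in wt (-0.45 ± 0.18, adjusted p 0.14), and without replicate 3 it was lower by a called -0.78 (adjusted p 0.0012). In root it had 2 counts in nbr6-t1 and 3 in wt, too few for a fold. AT1G17430 was not called in nbr6-t1 in root (0.21 ± 0.17, adjusted p 0.42) or shoot (0.32 ± 0.23, adjusted p 0.47).

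In taf12-t1, LOX4 rose in root and AOC1 and OPR3 rose in shoot, where JMT fell. In root 1 of 8 members was called, where 39.2% of all genes were called. LOX4 was at 1.1, 1.86, 1.07 and 1.83 TPM, above every wt library (1.44 ± 0.4, adjusted p 0.0048). Photosynthesis genes summed to 148 to 211 TPM in these root libraries against 448 to 478 in wt. The other tested members ranged from -0.32 (AOS, adjusted p 0.18) to 1.55 (LOX3, 6 counts against 3, ratio 3.13, 95% counting interval 0.669 to 19.4), and AOC1 had 1 count against 10 (ratio 0.157, interval 0.00361 to 1.1). For AOS every taf12-t1 root library (12.8 to 13.6 TPM) lay below every wt library (17 to 19.6). The same held for AOC4 (42.3 to 44 TPM against 47.9 to 59). On log2(TPM + 1) limma called AOS (-0.43, adjusted p 0.04), AOC4 (-0.27, adjusted p 0.029) and OPR3 (-0.4, adjusted p 0.037) lower. The median over all genes on that scale was -0.13. The fit of 2 groups called AOS as well (-0.32, adjusted p 0.026).

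In taf12-t1 shoot 2 of 10 members rose and 1 fell, where 40.6% of all genes were called. AOC1 was at 34.5, 36, 31.1 and 36.3 TPM against 6.07, 19.5, 18.9 and 13.8 in wt. Every taf12-t1 library was above every wt library, and AOC1 rose by 1.28 ± 0.36 (adjusted p 0.01), or by 1.03 (adjusted p 0.023) without wt shoot replicate 1. AOC2 was at 128, 110, 136 and 122 TPM, likewise above every wt library, but its call missed the threshold (1.35 ± 0.54, adjusted p 0.058), and it passed without wt shoot replicate 3 (1.77, adjusted p 0.028). The summed AOC level was 170 ± 9.51 TPM against 75.6 ± 35.7 in wt, and the AOC2 share 73.1 ± 2.37% against 63 ± 9.74%. The SD of AOC2 was 29 TPM in wt and 10.9 in taf12-t1.

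OPR3 rose in taf12-t1 shoot by 0.41 ± 0.13 (adjusted p 0.013), and JMT fell by 0.78 ± 0.29 (adjusted p 0.035), and both calls rested on single libraries. OPR3 was lost without wt shoot replicate 1 (0.32, adjusted p 0.054) or taf12-t1 shoot replicate 3 (0.29, adjusted p 0.097). With all libraries kept, limma did not call it either (0.33, adjusted p 0.077). JMT was lost without wt shoot replicate 3 (-0.61, adjusted p 0.12) or 4 (-0.71, adjusted p 0.08), or taf12-t1 shoot replicate 1 (-0.83, adjusted p 0.052), 2 (-0.6, adjusted p 0.12) or 3 (-0.71, adjusted p 0.097). LOX4 was at 10.7, 14.1, 6.61 and 4.75 TPM (0.67 ± 0.36, adjusted p 0.15), and LOX2 at 170, 206, 222 and 206 TPM (0.11 ± 0.56, adjusted p 0.9). The root markers summed to 431 to 576 TPM in taf12-t1 shoot and 195 to 430 in wt shoot. Most of that sum was again PYK10, at 452.5 ± 60.62 TPM in taf12-t1 and 247 ± 106.2 in wt. Of the 10 root markers 4 were tested in shoot and 2 of them rose, PYK10 (0.94 ± 0.25, adjusted p 0.0071) and SHR (0.34 ± 0.13, adjusted p 0.046), and their part in the result was not tested. Of all genes tested in shoot, 40.6% were called in taf12-t1. OPR3 was the only member whose taf12-t1 effect differed between root and shoot by edgeR (-0.67 ± 0.2, adjusted p 0.016), 1 of 10 where 20.3% of all genes were called, and it was lost without wt root replicate 2 (-0.53, adjusted p 0.063), taf12-t1 shoot replicate 3 (-0.53, adjusted p 0.061) or taf12-t1 root replicate 3 (-0.53, adjusted p 0.056).

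The insertion lines of the paralogs TAF12 and TAF12B were also compared with each other, which tests the difference of their effects. In root 2 of 8 members were higher and 2 lower in taf12-t1 than in nbr6-t1, where 47.2% of all genes were called. LOX4 was higher by 2.85 ± 0.52 (adjusted p 2.6e-05), without overlap of the libraries. AOC2 was called higher at 3.09 ± 0.99 (adjusted p 0.011) on 16 counts against 2, a ratio of 9.58 (95% counting interval 2.25 to 85.9), and it was lost without taf12-t1 root replicate 4 (2.53, adjusted p 0.082) and stood at 5.44 without nbr6-t1 root replicate 3. AOC4 was lower by -0.34 ± 0.1 (adjusted p 0.0061). OPR3 was lower by -0.42 ± 0.15 (adjusted p 0.022), which was lost without nbr6-t1 root replicate 3 (-0.35, adjusted p 0.073) or taf12-t1 root replicate 3 (-0.28, adjusted p 0.1).

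In shoot 4 of 10 members were higher in taf12-t1 than in nbr6-t1 and 0 lower, where 47.1% of all genes were called, a share near that of the members. They were LOX3 (0.68 ± 0.19, adjusted p 0.0049), LOX4 (1.63 ± 0.4, adjusted p 0.0034), AOC1 (1.78 ± 0.4, adjusted p 0.0017) and AOC2 (1.85 ± 0.57, adjusted p 0.015). Without nbr6-t1 shoot replicate 3, the high library of that group, AOC2 stood at 2.49 (adjusted p 0.0037), and LOX2 was called as well, at 1.53 (adjusted p 0.023) in place of 0.61 (adjusted p 0.4). AOS showed 0.04 ± 0.16 (adjusted p 0.85), and its means were between 59.2 and 68.8 TPM in the shoot of all 5 genotypes.

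The other lists were read in shoot as well. In bz1728 shoot, where 17.8% of all genes were called, 3 of 17 genes of other synthesis steps fell and 0 rose, 1 of 7 turnover genes rose, and of 18 genes of perception and regulation 3 rose and 5 fell. ORA59, a transcription factor of defence genes, was at 3.05, 3.58, 2.41 and 1.86 TPM in wt shoot and at 0.36, 0.544, 0.728 and 0.483 in bz1728 (-2.37 ± 0.51, adjusted p 0.002). Of 10 response genes 4 fell and 1 rose. PDF1.2a, a defensin, was at 3.57, 35.5, 60.5 and 146.7 TPM in wt shoot and listed at 0 in 3 of 4 bz1728 libraries (-8.27 ± 1.89, adjusted p 0.0066). VSP2 went the other way, from 16.2, 38.4, 24 and 35.8 TPM in wt to 88.9, 79.9, 102 and 95.9 in bz1728 (1.56 ± 0.39, adjusted p 0.011). JAZ6 fell by 1.34 ± 0.23 (adjusted p 0.00089), TCH3 by 1.25 ± 0.31 (adjusted p 0.011) and TCH2 by 0.61 ± 0.12 (adjusted p 0.0012).

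In taf12-t1 shoot, where 40.6% of all genes were called, 4 of 18 genes of perception and regulation rose and 0 fell. They were JAZ12 (0.56 ± 0.1, adjusted p 9.2e-05), JAZ2 (0.95 ± 0.2, adjusted p 0.00081), ORA59 (1.49 ± 0.33, adjusted p 0.00091) and JAZ10 (1.18 ± 0.29, adjusted p 0.0024). JAR1, the enzyme that joins jasmonate to isoleucine, rose by 0.71 ± 0.11 (adjusted p 2.5e-05), 1 of 7 turnover genes. Of 10 response genes 3 fell and 0 rose, among them VSP1 (-1.45 ± 0.55, adjusted p 0.047), of 17 genes of other synthesis steps 4 rose and 3 fell, and of 9 wound and touch genes 2 rose. In taf12-t1 root, where 39.2% of all genes were called, 9 of 17 genes of perception and regulation fell and 1 rose, with MYC3 (-0.66 ± 0.09, adjusted p 4.6e-07) and MYC4 (-0.6 ± 0.1, adjusted p 1.2e-05) first by adjusted p. TCH4 rose there by 1.04 ± 0.16 (adjusted p 3.3e-06), and 3 of 9 wound and touch genes rose.

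In nbr6-t1 root, where 20.5% of all genes were called, 2 of 17 genes of other synthesis steps rose and 3 fell, 2 of 9 turnover genes rose and 1 fell, and 1 of 17 genes of perception and regulation fell. CYP94B3 rose by 1.39 ± 0.14 (adjusted p 2.6e-08), and LOX5, a lipoxygenase outside the jasmonate route, fell by 0.64 ± 0.1 (adjusted p 6.4e-06). In shoot FAD3 fell by 0.61 ± 0.1 (adjusted p 0.00015).

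The pattern of AOS across libraries was compared with that of other genes with a symbol by Pearson's r of log2(CPM + 1), where CPM is the count scaled to the library total, over the 20 libraries of a tissue. The libraries share their genotype groups and each gene its depth, and r is a description. In root the 5 genes most like AOS were TAT3 (0.965), AR781 (0.963), GSTU26 (0.962), MSRB8 (0.956) and GGH1 (0.953), of which TAT3 is in the jasmonate response list. Among the members, r with AOS in root ran from 0.699 for LOX4 to 0.922 for AOC3. In shoot the most like AOS were HAE (0.853), BIP3 (0.808), WRKY46 (0.791), CORI3 (0.767) and NSP5 (0.756), of which CORI3 is in that list. In shoot r with AOS was 0.772 for LOX2 and 0.681 for AOC3, but 0.102 for OPR3 and -0.296 for AOC4.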

How the data were processed

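Per the submitters' processing notes, reads were trimmed with Trimmomatic 0.39 and transcript abundance was estimated with kallisto 0.44.0. The deposited estimated counts are reads per transcript, 1 transcript per locus, with no scaling for depth. The deposited TPM values are scaled by the authors for effective length and library total, and they are the levels printed. No source used here names a build or annotation release. Of 27655 transcripts 27444 share their ID with the TAIR10.1 annotation, and all of these have the same length there. Symbols, coordinates and sequences come from it, and 6 loci of the lists are called by locus code because it does not give the name sought.

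Library totals were 2663664 to 12896653 counts, and low counts limit the precision of rare members. Samples were grouped by their labels. Replicate numbers did not pair the samples. Rounding of the estimated counts came first. edgeR 4.0.16 in R 4.3.3 then gave two-sided robust quasi-likelihood tests with TMM factors, after filterByExpr at a minimum count of 10 and total of 15, with Benjamini-Hochberg adjustment over 18745 genes in root, 17382 in shoot and 20015 in all 40 libraries. One fit held the 20 libraries of each tissue, and a further fit held all 40 for tissue differences. Standard errors are approximate, taken from the log2 fold change and the root of its F value. The method was tested on simulated data. Ratios of groups with 1 to 3 counts have exact 95% intervals, and the floor for 0 counts is 3. Motifs were searched in Python 3.11.15. Identities of coding sequences come from global pairwise alignment with biopython 1.88. The stretch of the AOC genes that is shown was aligned with MAFFT 7.526.

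Alternatives were DESeq2 size factors, DESeq2 1.42.0, no filter, a replicate block, limma 3.58.1 on log2(TPM + 1), the sum of AOC1, AOC2 and AOC3, a fit of 2 groups, and leaving out each library. The members and gene lists were chosen with earlier results of these data known. The rule for naming was all 10 members in each comparison, up to 4 genes of each other list by smallest adjusted p, the 4 mutated genes, the 5 genes most like AOS per tissue and the neighbours of LOX3. LOX6 in bz1728 root was named after its values were seen. No cell type was named from the markers.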

Additional observations from a re-analysis of the deposited data

Results flagged for a closer look

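In 92 sets of 4 libraries of a member, 6 held 1 library far from the other 3, near the share of about 1 in 20 that chance gives. LOX2 was at 0.291 TPM in wt root replicate 2 and at 0.53 in taf12-t1 root replicate 4, and listed at 0 in the other 3 libraries of each group. These LOX2 values rest on 5 and 6 counts, and beside 3 libraries at 0 any value above 0 is flagged. AOS was at 78.6 TPM in bz1728 shoot replicate 1 and at 74.1 in nobiro6 shoot replicate 1, the highest of each group. AOC3 was at 0.52 TPM in wt shoot replicate 1, and JMT at 2.73 in nobiro6 shoot replicate 1, the lowest of each group.

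The difference between bz1728 and wt was unequal in root and shoot by the edgeR interaction test for 7 members. The root effect exceeded the shoot effect on the log2 scale by 5.46 for LOX2, 5.67 for LOX3, 3.24 for LOX4, 1.57 for AOS, 4.07 for AOC2, 1.66 for AOC3 and 0.839 for OPR3. For nobiro6 against bz1728 the same test gave -3.36 for LOX3 and -0.961 for AOS. For taf12-t1 against wt it gave -0.666 for OPR3.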

How the results depend on the processing

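All calls of members in bz1728 against wt and in nobiro6 against bz1728 in root kept their side of the threshold and direction under every alternative run. The only reversal among called members was OPR3 in wt root against shoot, 0.37 by limma on log2(TPM + 1). With a fit of the 2 groups alone, 1 member, LOX3, was called in nobiro6 against bz1728 in shoot. That fit called 2 in nbr6-t1 against wt in shoot and 2 in taf12-t1 against wt in root. DESeq2 called 1 in nbr6-t1 shoot, 6 in the root minus shoot test of nobiro6 against bz1728 and 2 in that of taf12-t1. By limma 4 were called in taf12-t1 root, with LOX4 higher and AOS, AOC4 and OPR3 lower. It called 2 in the root minus shoot test of taf12-t1, and 765 of all genes in that of nbr6-t1, against 481. With 1 library left out, the count ran from 0 to 3 in nobiro6 against wt in shoot, 0 to 2 in nbr6-t1 root, 0 to 1 in nbr6-t1 shoot, 1 to 3 in taf12-t1 shoot and 0 to 1 in the root minus shoot test of taf12-t1; the causes were not tested. Replicate numbers did not pair the samples, since same-numbered libraries did not deviate together in every pair. The replicate block changed 1 member call, OPR3 in the root minus shoot test of nobiro6 against bz1728 (-0.54, adjusted p 0.038). Relative to edgeR, TPM gave a median gene-by-gene shift of the log2 difference of 1.01 in root against shoot, of -0.14 and -0.17 in taf12-t1 root against wt and nbr6-t1, and of 0.13 in bz1728 shoot. Depth limits LOX2, LOX3, AOC1, AOC2 and JMT in root, where most groups held under 20 counts.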
